A study of Homo sapiens with 9 samples.

Results

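The 6 actin isoform genes (ACTB, ACTG1, ACTA2, ACTA1, ACTC1 and ACTG2) were followed among the 58174 genes quantified in ES-2 cells. ES-2 is a permanent line grown from a tumour of the ovary. The members were all rows of the deposited tables whose gene symbol equals 1 of these 6 names, a rule that uses no measured value, although the names were picked with earlier results of these data known. All cells were kept in DMEM with FBS and transfected with siRNA. They received a control siRNA (siC), the siRNA pool directed at IGF2BP1 (siIGF2BP1) or the siRNA pool directed at SRF (siSRF), and total RNA was taken after 72 h. Each condition comprised 3 libraries of RNA freed of ribosomal RNA, and nothing in the labels says whether they came from separate cultures, so p-values measure the spread between these libraries, which may be technical. All cells are of 1 line, and siRNA leaves part of the targeted mRNA in place.

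Actin is the building block of the microfilaments, and its genes encode proteins that differ at few residues. ACTB and ACTG1 encode the cytoplasmic β- and γ-actins that nearly all cells use for shape, adhesion and migration. ACTA2 encodes the α-actin and ACTG2 the γ-actin of smooth muscle, ACTA1 the α-actin of skeletal muscle and ACTC1 that of the heart. SRF is a transcription factor that binds CArG boxes in the promoters of actin genes. Its co-factors MRTFA and MRTFB are held back by free actin monomers, so that actin feeds back on its own transcription. IGF2BP1 is an RNA-binding protein of which the chicken counterpart, ZBP1, was first described as a binder of the β-actin mRNA.

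The CArG box is shown first, since it is the element through which SRF is known to act on these promoters. The motif consists of CC, 6 bases that are each A or T, and GG, and it reads the same on both strands. RefSeq promoter sequences (GRCh38.p14, 250 bases before to 50 after a start) held an entry at the start of the main transcript for 5 of the isoform genes, and ACTB is not shown. The stretch from 150 to 51 bases before the start is given 5′ to 3′ for each, with capitals on exact matches and, in ACTA2 alone, on the matches in which 1 of the 6 middle bases is C or G.
ACTG1 (chr17:81512850-81512949, minus strand): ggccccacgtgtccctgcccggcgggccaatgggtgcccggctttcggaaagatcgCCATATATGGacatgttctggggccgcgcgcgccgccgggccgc
ACTA2 (chr10:88952824-88952923, minus strand): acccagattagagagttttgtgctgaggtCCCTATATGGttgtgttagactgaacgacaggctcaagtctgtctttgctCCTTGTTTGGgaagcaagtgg
ACTA1 (chr1:229434145-229434244, minus strand): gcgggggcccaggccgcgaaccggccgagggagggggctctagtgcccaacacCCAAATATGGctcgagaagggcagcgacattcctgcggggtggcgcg
ACTC1 (chr15:34795600-34795699, minus strand): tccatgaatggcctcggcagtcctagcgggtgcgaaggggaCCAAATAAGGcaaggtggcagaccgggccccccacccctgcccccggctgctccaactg
ACTG2 (chr2:73892858-73892957, plus strand): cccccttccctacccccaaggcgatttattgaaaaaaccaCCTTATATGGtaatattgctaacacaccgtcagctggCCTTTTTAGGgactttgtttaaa
Exact matches were found in 4 of the 5 promoters, against 454 of all 35116 promoter entries of the same length (1.29%). The match began 94 bases before the start in ACTG1, 97 bases before it in ACTA1 and 109 bases before it in ACTC1, and ACTG2 held matches that began 110 and 73 bases before it. ACTA2 held no exact match in its 300 bases, and its near matches began 121 and 71 bases before the start. Exact and near matches together occurred in 8.13% of all entries. A match describes these letters only, and binding of SRF was not measured in these libraries.

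The 9 libraries held 6421764 to 9416175 reads on genes, with a median of 7377934. The values are FPKM, that is, fragments per kilobase of gene length relative to the library size, which was scaled by TMM. Where limma is named alone, it was run on log2(FPKM + 0.1) with a mean-variance trend (limma-trend), while limma-voom weighs the recovered reads. Each knockdown was checked on its target. IGF2BP1 was at 12.8, 13.5 and 12.1 FPKM in siC and at 4.18, 4.14 and 4.02 FPKM in siIGF2BP1, and fell by 1.61 on the log2 scale (limma, adjusted p = 1.4e-04). SRF was at 13.6, 14.1 and 16.0 FPKM in siC, at 5.80, 5.42 and 6.80 FPKM in siIGF2BP1 and at 1.63, 1.36 and 1.42 FPKM in siSRF. SRF thus fell by 3.22 upon its own knockdown (limma, adjusted p = 6.1e-05) and by 1.26 upon IGF2BP1 knockdown (limma, adjusted p = 0.0011). Markers of the labelled origin were mixed, with KRT7, KRT8 and KRT18 present but EPCAM, CDH1, PAX8, WT1 and MUC16 at most at 0.262 FPKM in any library, and the mesenchymal VIM at 837 to 1065 FPKM. The 6 fibroblast and mesenchyme markers summed to 1050 to 1069 FPKM in siC, 857 to 946 in siIGF2BP1 and 841 to 890 in siSRF. VIM, most of that sum, fell by 0.31 on the log2 scale in siSRF (limma, adjusted p = 0.0091). In siIGF2BP1 VIM was 0.26 lower, called by limma-voom (adjusted p = 2.6e-08) but not by limma-trend (adjusted p = 0.0400). COL1A1 rose by 2.54 and PDGFRB by 2.07 in siIGF2BP1 (limma, adjusted p = 8.5e-04 and 0.0068). PDGFRB was low, at 0.116 to 0.165 FPKM in siC and 0.794 to 1.08 FPKM in siIGF2BP1. COL1A2 and DCN were at most at 0.0246 FPKM in any library, and LUM was at 0. Of the 8 epithelial markers (summed 149 to 161 FPKM in siC, 192 to 220 in siIGF2BP1 and 217 to 222 in siSRF), KRT7 rose in both knockdowns, by 0.59 and 0.33, KRT8 by 0.55 in siIGF2BP1 and KRT18 by 0.91 in siSRF (limma, adjusted p of 0.0046 or less). The part of these shifts in the actin values was not tested.

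ACTB was the most abundant isoform in siC and in siIGF2BP1, and fell upon SRF knockdown. ACTG1 stood next to it, and the 4 muscle isoforms together contributed at most 0.0561% of the summed actin FPKM in any library. Upon SRF knockdown the summed FPKM of the 6 genes was 47.2% of the siC level, and the 2 cytoplasmic isoforms lay close to each other. In bulk RNA, fewer cells that express a gene and less RNA per cell cannot be told apart.

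ACTB (ENSG00000075624, chr7:5526409-5563902, minus strand, GRCh38) was at 749, 709 and 683 FPKM in siC, at 574, 452 and 490 FPKM in siIGF2BP1 and at 243, 276 and 271 FPKM in siSRF. The 3 conditions did not overlap, with siC highest and siSRF lowest. The means were 713 ± 33.1 in siC, 505 ± 62.1 in siIGF2BP1 and 263 ± 18.01 in siSRF (FPKM, SD, n = 3). Between 5642 and 16094 reads per library lay behind these values. In siSRF, ACTB was at 36.9% of its siC level, a log2 fold change of -1.44 (95% interval -1.60 to -1.27, limma, adjusted p = 1.9e-04). In siIGF2BP1 it was at 70.8% of its siC level, a log2 fold change of -0.50 (-0.74 to -0.27), which did not pass the threshold of 0.01 (limma, adjusted p = 0.0182). Compared directly, ACTB was higher in siIGF2BP1 than in siSRF by 0.93 on the log2 scale (0.70 to 1.17, limma, adjusted p = 8.0e-04). The difference between siIGF2BP1 and siC was called when genes under a mean of 1 FPKM were left out (adjusted p = 0.0094), with all 9 libraries in 1 limma fit (0.0057) and by limma-voom on the recovered reads (5.1e-10).

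ACTG1 (ENSG00000184009, chr17:81509413-81523847, minus strand) was at 475, 509 and 330 FPKM in siC, at 554, 369 and 423 FPKM in siIGF2BP1 and at 263, 291 and 286 FPKM in siSRF. The siC and siIGF2BP1 libraries overlapped, whereas every siSRF library lay below all others. The means were 438 ± 95.4 in siC, 449 ± 94.98 in siIGF2BP1 and 280 ± 15.1 in siSRF (FPKM, SD, n = 3). The log2 fold change of siIGF2BP1 against siC was 0.04 (95% interval -0.47 to 0.55, limma, adjusted p = 0.937). In siSRF, ACTG1 was at 64.0% of its siC level, a log2 fold change of -0.62 (-1.02 to -0.22) that did not pass the threshold (limma, adjusted p = 0.0386). The direct difference of 0.66 between siIGF2BP1 and siSRF (0.30 to 1.01) did not pass it either (limma, adjusted p = 0.0159). The siC library of replicate 3 was the lowest of its condition, and without it the siSRF change was -0.81 and was called (limma, adjusted p = 0.0031). By limma-voom on the recovered reads both differences to siSRF were called (adjusted p = 3.3e-07 against siC and 6.9e-10 against siIGF2BP1), and the direct difference was also called without TMM scaling (0.0091), above a mean of 1 FPKM (0.009989) and without siIGF2BP1 replicate 2 (0.0089).

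**Figure D1:**
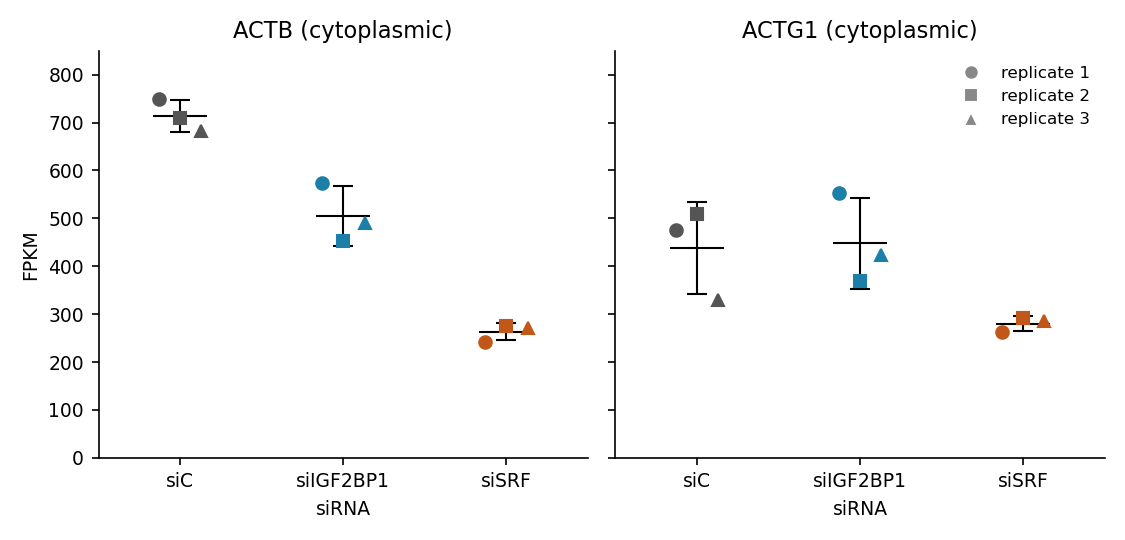
FPKM (vertical axes, from 0) of ACTB and ACTG1 in each library (points, shaped by replicate number) for siC, siIGF2BP1 and siSRF, with the mean (long bar) and SD of 3 libraries (short bars). ACTB steps down from 683 to 749 FPKM in siC to 243 to 276 FPKM in siSRF without overlap, while the ACTG1 values of siC and siIGF2BP1 overlap.

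Among all genes tested against siC, 3.57% were called lower and 3.55% higher in siIGF2BP1 (22292 genes), and 5.34% lower and 6.85% higher in siSRF (21857 genes). In the direct comparison 11.2% of 22311 genes were called lower and 8.82% higher in siIGF2BP1. Without TMM scaling the balance turned in both comparisons with siSRF, to 1408 lower and 1234 higher genes in siSRF and to 2126 lower and 2346 higher in the direct comparison. Of the 6 isoform genes, 3 passed the filter of a mean of 0.1 FPKM in each comparison (ACTB, ACTG1 and ACTA2). At an adjusted p of at most 0.01 in limma, none of the 3 was called in siIGF2BP1 against siC, where 1 had an unadjusted p under 0.05 (29.2% of all genes did) and limma-voom called 1 (17.1% of all genes). ACTB alone was called in the 2 comparisons with siSRF, where limma-voom called ACTG1 too. Limma-voom called 23.4% of all genes in siSRF against siC and 31.0% in the direct comparison. Both knockdowns share the siC libraries, and so do all values set side by side against siC.

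ACTB also ranked lower in siSRF. Among the protein-coding genes it was between the 22nd and the 28th by FPKM in siC, between the 26th and the 38th in siIGF2BP1 and between the 93rd and the 105th in siSRF. ACTG1 ranked between the 42nd and the 75th in siC, between the 29th and the 55th in siIGF2BP1 and between the 82nd and the 97th in siSRF. The rank ranges of ACTB in siC and siIGF2BP1 overlapped, those in siSRF did not.

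The summed FPKM of the 6 genes was 1152 ± 121 in siC, 954 ± 157 in siIGF2BP1 and 544 ± 33.2 in siSRF (SD, n = 3). The siSRF libraries, at 506 to 568, lay below all others, and those of siIGF2BP1, at 821 to 1128, overlapped with those of siC, at 1013 to 1225. On the log2 scale the sum changed by -1.08 in siSRF (p = 0.1 by a two-sided exact permutation test, which 3 against 3 libraries cannot undercut) and by -0.28 in siIGF2BP1 (exact permutation test, p = 0.2). Adjusted over the 3 such tests by Benjamini-Hochberg these were 0.15 and 0.2.

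The balance between the cytoplasmic isoforms was separated by condition in these libraries, but with 3 of each the exact permutation test cannot settle it. ACTB took 58.2 to 67.4% of the summed actin FPKM in siC, 50.9 to 55.1% in siIGF2BP1 and 48.0 to 48.7% in siSRF. The 3 conditions did not overlap. The log2 ratio of ACTG1 to ACTB within a library was -0.66, -0.48 and -1.05 in siC, -0.05, -0.30 and -0.21 in siIGF2BP1 and 0.11, 0.08 and 0.08 in siSRF. It was thus 0.54 higher in siIGF2BP1 and 0.82 higher in siSRF than in siC, and 0.28 on the log2 scale separated the knockdowns. Each of these 3 differences was at the smallest p that the two-sided exact permutation test can give for 3 against 3 (p = 0.1). After Benjamini-Hochberg adjustment over 9 ratio tests each was at 0.3. The 3 differences share libraries, so they are not independent. Without siC replicate 3, whose ratio was the lowest, the differences to siC were 0.38 and 0.66.

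Which of both isoforms was higher in siSRF depended on the gene length. The deposited tables use 3256 bases for ACTB and 2976 bases for ACTG1, whereas their main transcripts in GENCODE release 44 hold 1812 and 1919 bases. Per base of the main transcript, an alternative chosen after seeing the values, ACTB took 61.7 to 70.6% in siC, 54.5 to 58.7% in siIGF2BP1 and 51.7 to 52.3% in siSRF. ACTB was then above ACTG1 in all 9 libraries. The log2 differences of ACTB, ACTG1 and their ratio between conditions hardly depend on this length, whereas the shares do.

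**Figure D2:**
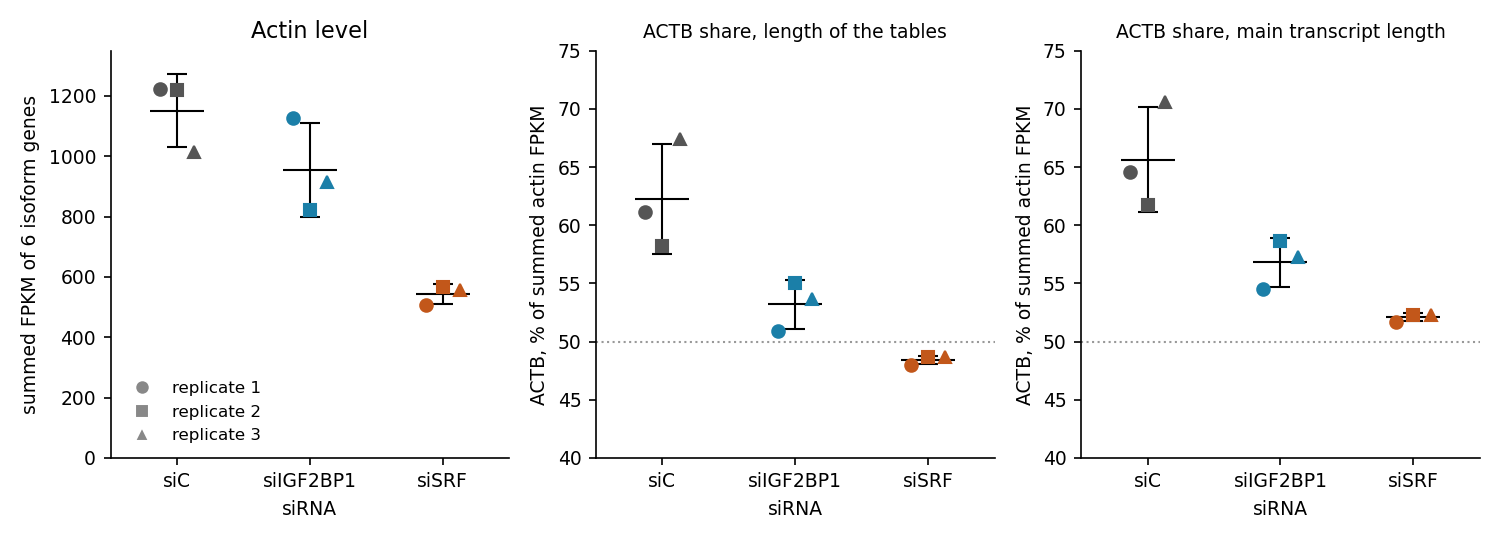
Summed FPKM of the 6 isoform genes (left, from 0) and the share of ACTB in it in percent, with the gene length of the tables (middle) and of the main transcript (right; both from 40 to 75%), in each library with the mean (long bar) and SD of 3 libraries. The share of ACTB is highest in siC and lowest in siSRF in both, and the siSRF libraries lie below the dotted line at 50% with the first length and above it with the second.

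The muscle isoforms were near the detection limit. ACTA2 (ENSG00000107796, chr10:88935074-88991339, minus strand) was at 0.458, 0.297 and 0.0929 FPKM in siC, at 0.351, 0.461 and 0.159 FPKM in siIGF2BP1 and at 0, 0.258 and 0.137 FPKM in siSRF. These values rest on 0 to 10 reads per library and overlap between all conditions. Where ACTA2 had 0 reads, a limit of 3 reads allows up to 0.141 FPKM, counting error only. The log2 fold changes were 0.20 in siIGF2BP1 (95% interval -1.13 to 1.54, limma, adjusted p = 0.853) and -0.78 in siSRF (-2.41 to 0.85, limma, adjusted p = 0.483), and the direct difference was 0.98 (-0.51 to 2.48, limma, adjusted p = 0.289). Each of these intervals holds 0 and reaches beyond a 2-fold change in at least 1 direction, so no difference was detectable at this depth. The size depended on the settings, from -0.18 (pseudocount 1) to -1.74 (pseudocount 0.01) in siSRF and from 0.23 to 2.06 in the direct comparison, with -1.28 and 1.55 by limma-voom. Without siSRF replicate 1, the library at 0, the values were -0.26 and 0.47, and over all single libraries left out they reached -1.21 (without siC replicate 3) and 1.39 (without siSRF replicate 2).

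ACTC1 (ENSG00000159251, chr15:34790107-34795589, minus strand) had 2 reads in siC replicate 3 and 1 read each in siSRF replicates 2 and 3, which equal 0.0596, 0.0236 and 0.0292 FPKM, and 0 reads elsewhere. ACTG2 (ENSG00000163017, chr2:73892314-73919865, plus strand) had 1 read in siIGF2BP1 replicate 1 (0.0342 FPKM) and 1 in siSRF replicate 2 (0.0288 FPKM). ACTA1 (ENSG00000143632, chr1:229430365-229434104, minus strand) had 0 reads in all 9 libraries, where 3 reads would equal 0.220 to 0.304 FPKM. No fold change is given for these 3 genes, since every value lies under 3 reads.

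**Figure D3:**
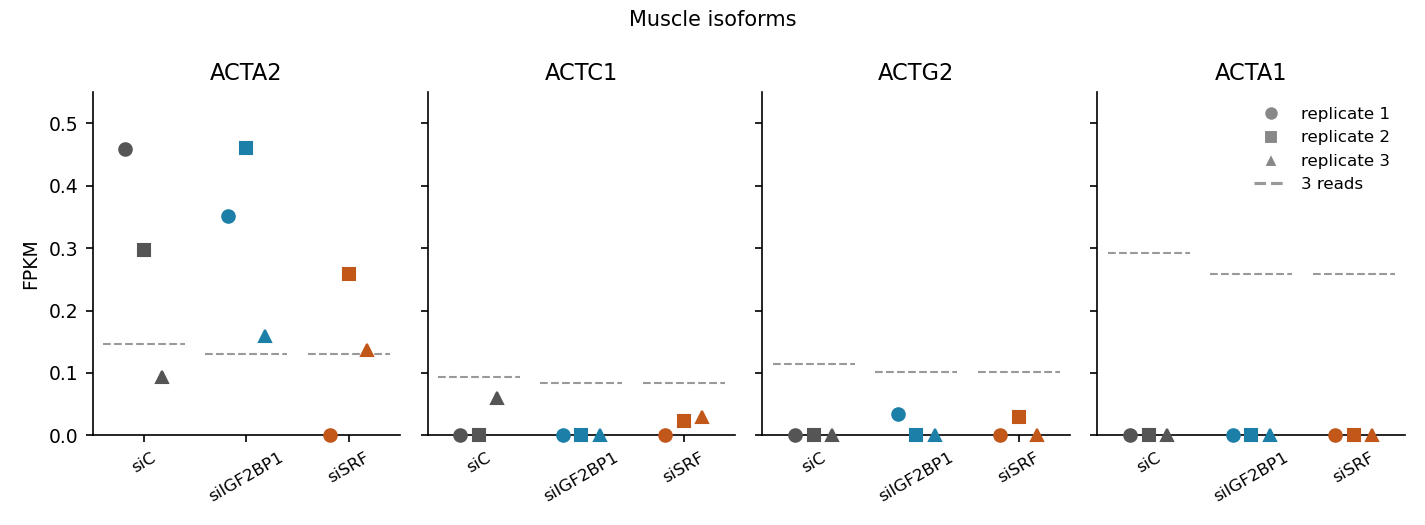
FPKM (vertical axis, from 0) of the 4 muscle isoforms in each library, shaped by replicate number, with the mean level of 3 reads in each condition as a dashed line. ACTA2 exceeds that line in 2 of the 3 libraries of siC and of siSRF and in every siIGF2BP1 library. All values of ACTC1, ACTG2 and ACTA1 stay below it.

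Summed muscle isoform FPKM was 0.153 to 0.458 in siC, 0.159 to 0.461 in siIGF2BP1 and 0 to 0.311 in siSRF. The log2 ratio of the muscle to the cytoplasmic sum, with 0.1 FPKM added to both, was -11.6 ± 0.436 in siC, -11.2 ± 0.635 in siIGF2BP1 and -11.3 ± 0.956 in siSRF (SD, n = 3). The differences to siC were 0.39 (two-sided exact permutation test, p = 0.5) and 0.29 (exact permutation test, p = 0.7), each smaller than the SD. The summed actin FPKM, nearly all of it cytoplasmic, changed on average by -1.08 in siSRF and by -0.28 in siIGF2BP1 on the log2 scale. With 0.1 FPKM added, even a muscle sum of 0 in both conditions would thus give a positive difference to siC in either knockdown. ACTA2 itself was at 46.6% of its siC level in siSRF. The ratio of ACTA2 alone to the cytoplasmic sum differed by 0.48 (exact permutation test, p = 0.5) and 0.30 (exact permutation test, p = 0.7) from siC. After Benjamini-Hochberg adjustment over the 9 ratio tests these 4 p-values were 0.9. In siIGF2BP1 the 2 differences fell to 0.07 and 0.14 without siIGF2BP1 replicate 2, were 0.18 and 0.14 without siC replicate 3 and 0.61 and 0.77 without siC replicate 1, and reached 0.70 and 0.78 without siIGF2BP1 replicate 3. The direction in siSRF was not stable. The difference of the muscle sum was -0.12 without siSRF replicate 2, and that of ACTA2 was -0.07 without siSRF replicate 2 and -0.04 without siC replicate 3. Counted in reads, with 0.1 read added in place of 0.1 FPKM, the differences were -1.07 and -0.9999 (exact permutation test, p = 0.9 for each). The larger SD was then 3.25 and 3.03, and siSRF replicate 1 holds 0 muscle isoform reads. Markers of muscle were at the same low level. Of the 7 skeletal and cardiac markers (MYOD1, MYOG, MYH7, MYH6, TNNT2, TNNI3 and CKM), 6 were at 0 in every library and CKM reached 0.132 FPKM. The 5 smooth muscle markers (MYH11, DES, MYOCD, LMOD1 and CNN1) summed to 0 to 0.132 FPKM, with MYOCD, the muscle-specific SRF co-factor, at 0 throughout.

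Reads could be shared between the isoforms and their copies. The coding sequences of ACTB and ACTG1 are identical at 91.3% of positions, and those of the other pairs of isoforms at 81.8 to 85.9%. No stretch of 75 bases of 1 main isoform transcript occurred in the transcripts of another isoform gene, and 2.88% of the ACTB stretches occurred in pseudogene, POTE or ACTBL2 transcripts (GENCODE release 44). For ACTG1 that share was 0. Read length and the treatment of reads with several hits are not given in the sources used here.

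Of the 30 pseudogenes named after ACTB or ACTG1, 16 had a read in any library. Reads on those named after ACTB amounted to 0.156 to 0.522% of the ACTB reads, and reads on those named after ACTG1 to 0.166 to 0.425% of the ACTG1 reads. Added to their parent gene, they left the siSRF change of ACTB at -1.43 and that of ACTG1 at -0.62. ACTBP2 was at 1.35, 1.57 and 1.60 FPKM in siC and at 0.125, 0 and 0.483 FPKM in siSRF, and ACTBP7 at 2.16, 1.83 and 1.48 FPKM in siC and at 2.87, 2.73 and 3.499 FPKM in siSRF. Neither difference to siC passed the threshold with limma-trend (limma, adjusted p = 0.0244 and 0.0322), and their values, chosen after they were seen, rest on 0 to 29 reads per library. With limma-trend no pseudogene was called in any comparison. At an unadjusted p under 0.05 it found 0 of 7 in siIGF2BP1, 3 of 6 in siSRF and 4 of 7 in the direct comparison, beside 29.2, 34.7 and 41.1% of all genes. Limma-voom called 0, 1 and 2 of them, ACTBP2 in both comparisons with siSRF and ACTG1P17 in the direct one, beside 17.1, 23.4 and 31.0% of all genes.

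Genes on the opposite strand overlap ACTA2, ACTC1 and ACTA1 over their main exons. GJD2-DT spans all 1382 bases of the main ACTC1 transcript and had 1 read, in siC replicate 3. ENSG00000290037 spans 396 bases of the main ACTA1 transcript and has no values here. The rest concerns ACTA2. STAMBPL1 spans all 1349 bases of the main ACTA2 transcript, and the antisense ACTA2-AS1 spans 667 of them. ACTA2-AS1 was at 2.14, 2.13 and 1.69 FPKM in siC, at 2.58, 3.01 and 2.45 FPKM in siIGF2BP1 and at 2.47, 2.34 and 2.81 FPKM in siSRF, above ACTA2 in every library. STAMBPL1 was at 9.08 to 10.3 FPKM in siC, 8.99 to 10.7 FPKM in siIGF2BP1 and 12.6 to 15.6 FPKM in siSRF. FAS, which overlaps the longer ACTA2 gene but none of its main exons, was at 1.24 to 1.92 FPKM. STAMBPL1, ACTA2-AS1 and FAS were called in no comparison by limma-trend (limma, adjusted p of 0.0106 and above). Limma-voom called STAMBPL1 0.53 higher in siSRF than in siC (adjusted p = 5.5e-06) and 0.51 lower in siIGF2BP1 than in siSRF (1.5e-06). Limma-trend called 7.12% of all genes in siIGF2BP1, 12.2% in siSRF and 20% in the direct comparison, and limma-voom 17.1, 23.4 and 31.0%. The part of the overlapping genes in the few ACTA2 reads was not tested. The library kit keeps the strand, and whether the counting used it is not given in the sources used here.

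SRF and its co-factors were read beside the actins, because MRTFs respond to actin monomers. SRF, as given above, was called in all 3 comparisons, and was 1.96 higher on the log2 scale in siIGF2BP1 than in siSRF (limma, adjusted p = 1.3e-04). MRTFA, at 2.097 to 3.37 FPKM, and MRTFB, at 0.986 to 1.94 FPKM, were called in none by limma-trend (limma, adjusted p of 0.025 and above). By limma-voom MRTFB was 0.47 lower in siSRF than in siC (adjusted p = 0.0022) and 0.70 higher in siIGF2BP1 than in siSRF (3.1e-06). Of the ternary complex factors ELK1, ELK3 and ELK4, ELK3 was 0.38 lower on the log2 scale in siIGF2BP1 than in siSRF (limma, adjusted p = 3.2e-04), and no other difference of the 3 was called by limma-trend. Limma-voom also called ELK3 higher in siSRF (adjusted p = 0.0010) and ELK4 lower in siIGF2BP1 than in siSRF (6.5e-04). Among the related RNA-binding proteins, IGF2BP2 rose by 0.73 in siSRF (limma, adjusted p = 4.6e-04). IGF2BP3 was called in no comparison by limma-trend, whereas limma-voom called it higher in siIGF2BP1 (0.30, adjusted p = 0.0038) and in siSRF (0.38, adjusted p = 1.3e-04). For all genes tested the share called in siIGF2BP1, siSRF and the direct comparison was 7.12, 12.2 and 20% by limma-trend. By limma-voom it was 17.1, 23.4 and 31.0%.

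Other genes known as SRF and MRTF targets of the contractile apparatus did not all follow ACTB. Of 13 listed, 8 were tested. In siSRF 2 fell and none rose, in siIGF2BP1 2 fell and 1 rose, and in the direct comparison 3 were higher and 2 lower in siIGF2BP1. Limma-voom gave the same counts, except that 1 (TPM2) also rose in siSRF. Of all genes tested, 12.2% were called in siSRF, 7.12% in siIGF2BP1 and 20% in the direct comparison, and 23.4, 17.1 and 31.0% by limma-voom. VCL, the adhesion protein vinculin, was at 65.1, 67.1 and 69.0 FPKM in siC, at 62.7, 66.7 and 67.1 FPKM in siIGF2BP1 and at 19.9, 20.3 and 18.8 FPKM in siSRF. It fell by 1.76 on the log2 scale in siSRF (limma, adjusted p = 3.6e-05). FLNA, the actin cross-linker filamin A, fell by 0.76 in siSRF (limma, adjusted p = 7.5e-04). In siIGF2BP1, TPM1, a tropomyosin that lines the filament, rose by 1.31 (limma, adjusted p = 1.4e-04), SMTN, smoothelin, fell by 1.26 (adjusted p = 0.0016) and ACTN1, an α-actinin, fell by 0.46 (adjusted p = 0.0020). The list medians were 0.07 in siIGF2BP1 and -0.01 in siSRF, beside 0.02 and 0.01 over all genes tested.

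Of 22 other genes of the actin family, 13 were tested. ACTR1B, the β-centractin of the dynactin filament, was at 19.3, 20.4 and 20.7 FPKM in siC, at 20.6, 19.96 and 19.6 FPKM in siIGF2BP1 and at 5.82, 6.79 and 7.18 FPKM in siSRF. It fell by 1.60 on the log2 scale in siSRF (limma, adjusted p = 3.1e-04), while its paralog ACTR1A was at 38.8 to 41.2 FPKM in siSRF against 43.1 to 45.5 FPKM in siC and was not called (limma, adjusted p = 0.0401). ACTR5, a subunit of the INO80 chromatin remodeller, rose by 0.52 in siSRF (adjusted p = 0.0031). By limma-trend no other member of the list was called against siC in siSRF (1 more was lower without TMM scaling), whereas limma-voom called 4 higher (ACTR5, ACTR6, ACTR8 and ACTR10) and 2 lower (ACTR1B and ACTL10). None of the 13 was called in siIGF2BP1, where 5 had an unadjusted p under 0.05 (29.2% of all genes did) and limma-voom called 1, ACTR10. In the direct comparison 1 was higher in siIGF2BP1 (ACTR1B, by 1.595) and 5 were lower (3 without TMM scaling, 4 with median-ratio scaling), among them ACTR6 (by -0.75), ACTR5 (by -0.74) and ACTR3B (by -0.48). The median of the 13 was -0.13 in siIGF2BP1, 0.19 in siSRF and -0.32 in the direct comparison. The share of all genes called by limma-trend was 7.12, 12.2 and 20% in these comparisons, and 17.1, 23.4 and 31.0% by limma-voom.

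Of 17 genes that fold or modify actin, 9 rose in siSRF, where ACTB fell. The list held the 8 subunits of the CCT chaperonin, which closes over newly made actin, the 6 subunits of prefoldin, which hands actin to it, and the modifying enzymes SETD3 (histidine methylation), NAA80 (N-terminal acetylation) and ACTMAP (N-terminal cleavage). All 17 were tested. In siSRF 9 rose and none fell (8 and 1 without TMM scaling), in siIGF2BP1 4 fell and none rose, and in the direct comparison 13 were lower in siIGF2BP1 and none higher. Limma-voom called 13 higher and 1 lower (ACTMAP) in siSRF, 10 lower in siIGF2BP1 and 14 lower in the direct comparison, and without TMM scaling 6 were lower in siIGF2BP1. Over all genes tested, limma-trend called 12.2% in siSRF, 7.12% in siIGF2BP1 and 20% in the direct comparison, and limma-voom 23.4, 17.1 and 31.0%. The median log2 fold change was 0.33 in siSRF, -0.295 in siIGF2BP1 and -0.62 in the direct comparison, beside 0.01, 0.02 and 0.02 over all genes tested. CCT2 was at 115, 103 and 118 FPKM in siC, at 84.3, 89.4 and 93.0 FPKM in siIGF2BP1 and at 179, 169 and 159 FPKM in siSRF. It rose by 0.60 in siSRF (limma, adjusted p = 0.0020), and its difference of -0.33 in siIGF2BP1 was not called (adjusted p = 0.0193; by limma-voom 2.3e-05). PFDN1 was at 76.9, 72.5 and 63.6 FPKM in siC, at 41.1, 38.91 and 38.7 FPKM in siIGF2BP1 and at 96.3, 92.5 and 88.8 FPKM in siSRF. It fell by 0.84 in siIGF2BP1 (limma, adjusted p = 0.0014) and was not called in siSRF (0.39, adjusted p = 0.0145; by limma-voom 1.9e-05). The other genes named by rule were VBP1 (0.72), PFDN4 (0.68) and CCT5 (0.48) among those that rose in siSRF and CCT6A (-0.41), CCT5 (-0.34) and CCT4 (-0.33) among those that fell in siIGF2BP1. NAA80 and ACTMAP were lower in siSRF than in siC by -0.58 and -0.77 without a call by limma-trend (limma, adjusted p = 0.0126 and 0.0366).

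All 12 genes for proteins that bind actin monomers were tested, and they moved in both directions. In siIGF2BP1 3 rose and 2 fell, in siSRF 2 rose and 3 fell, and in the direct comparison 5 were higher and 1 was lower in siIGF2BP1. Limma-voom called 5 higher and 4 lower in siIGF2BP1, 2 and 6 in siSRF and 5 and 3 in the direct comparison. Limma-trend thus called 41.7, 41.7 and 50% of the list, beside 7.12, 12.2 and 20% of all genes. By limma-voom the share of all genes was 17.1, 23.4 and 31.0%. DSTN, the severing protein destrin, was at 15.0, 16.5 and 10.6 FPKM in siC, at 15.3, 14.4 and 13.7 FPKM in siIGF2BP1 and at 6.84, 6.44 and 7.61 FPKM in siSRF. It fell by 0.98 in siSRF (limma, adjusted p = 0.0088). The monomer sequestering TMSB4X fell by 0.39 (adjusted p = 0.0018), whereas TWF1, a twinfilin, rose by 0.72 (adjusted p = 6.8e-04). CFL2, the muscle-type cofilin, rose in both knockdowns, by 0.56 in siIGF2BP1 (adjusted p = 0.0015) and by 0.52 in siSRF (adjusted p = 0.0013). In siIGF2BP1, CAP2 rose by 0.73, PFN2, a profilin, rose by 0.54 and TWF2 fell by 0.76 (limma, adjusted p = 0.0035, 0.0037 and 0.0015). GSN, the filament severing gelsolin, was 1.54 higher in siIGF2BP1 than in siSRF (adjusted p = 0.0026), at 2.27 to 2.38 FPKM against 0.598 to 1.01 FPKM.

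**Figure D4:**
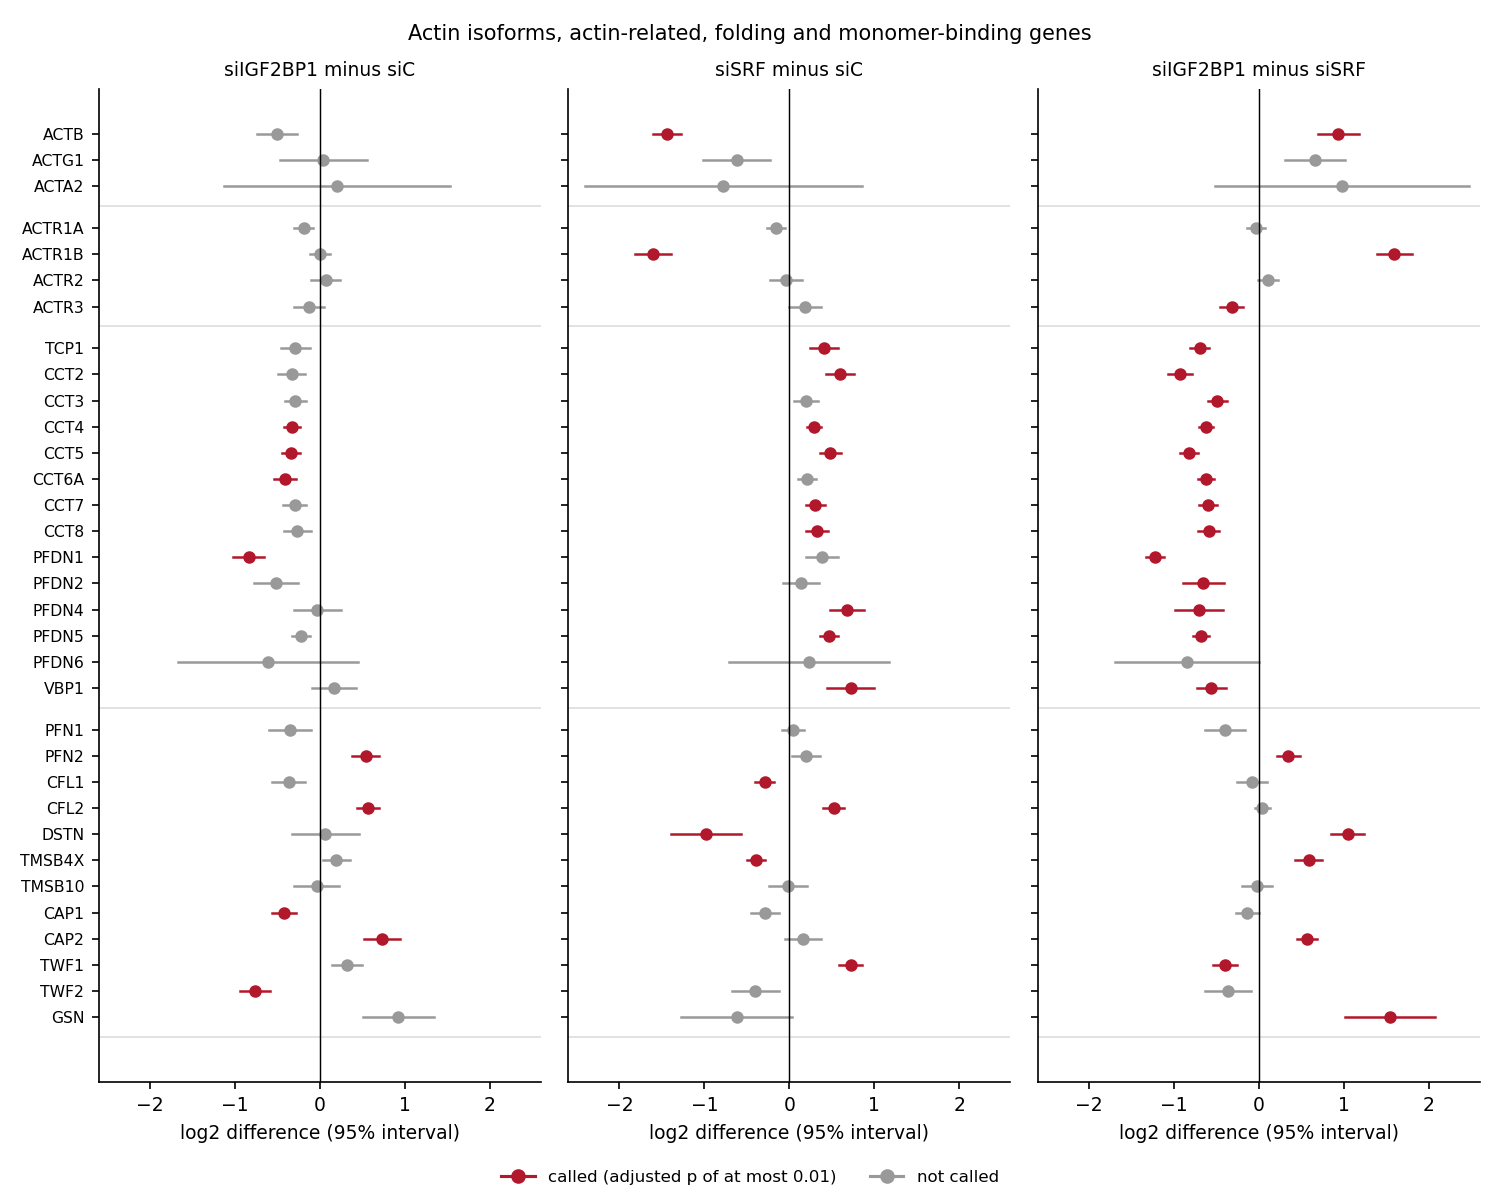
Log2 differences (horizontal axes, points) with 95% intervals from limma for tested isoform genes, 4 actin-related genes, CCT and prefoldin subunits and monomer-binding genes, in the 3 comparisons, in red where the adjusted p is at most 0.01 and in grey otherwise. In siSRF against siC ACTB lies at -1.44 while the folding genes lie to the right of 0, from 0.14 to 0.72.

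The genes with the profile most like that of the cytoplasmic isoforms were sought among 10379 protein-coding genes of at least 1 FPKM, by the root mean square difference of log2(FPKM + 0.1) centred per gene over the 9 libraries. Those nearest to ACTB were TNFRSF21 (0.10), the death receptor DR6, SSRP1 (0.11), a subunit of the histone chaperone FACT, and TMEM129 (0.12), an E3 ubiquitin ligase. TNFRSF21 was at 18.5 to 18.7 FPKM in siC, 14.1 to 15.9 FPKM in siIGF2BP1 and 7.21 to 7.93 FPKM in siSRF. It was chosen for its likeness to ACTB in these libraries, so the order of conditions that it shares with ACTB follows from the choice. Those nearest to ACTG1 were NUTF2 (0.12), a nuclear import factor, ATP7B (0.13), a copper transporter, and CCDC115 (0.13), an assembly factor of the proton pump. NUTF2 was at 18.4, 19.1 and 14.2 FPKM in siC. Its low replicate 3 likewise follows from the choice by likeness to ACTG1 and is no separate observation. ACTG1 itself ranked 570th in likeness to ACTB and ACTB 3150th in likeness to ACTG1, at a difference of 0.37. The likeness is over 9 libraries of 3 conditions and includes the spread between replicates.

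**Figure D5:**
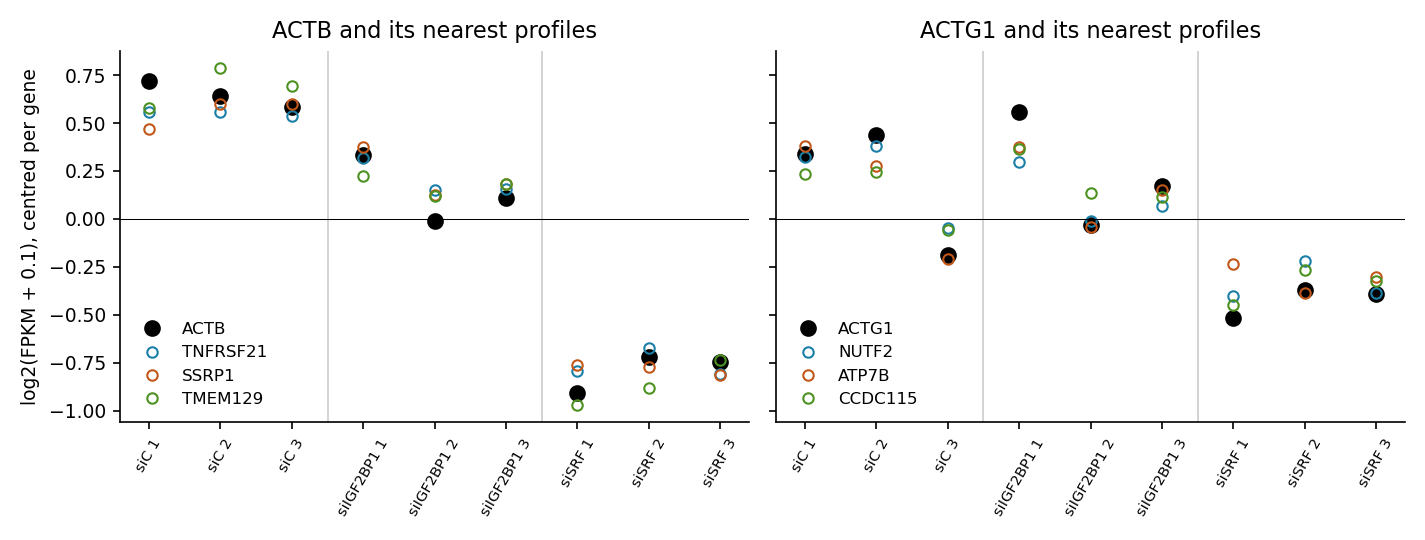
Values of log2(FPKM + 0.1), centred on each gene's mean over the 9 libraries (vertical axis), for ACTB and ACTG1 (filled) and the 3 genes nearest to each (open), by library. The open genes were chosen for their likeness over these libraries. That they share the order of conditions of ACTB or the low siC replicate 3 of ACTG1 follows from this choice.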

How the data were processed

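RNA-seq libraries from total RNA freed of ribosomal RNA of ES-2 cells (3 each of siC, siIGF2BP1 and siSRF) were grouped by the siRNA named in the labels. The authors used cutadapt 1.14 for clipping, HISAT2 2.1.0 for alignment to GRCh38 and featureCounts 1.5.3 for counts on Ensembl genes, and deposited FPKM values per library, scaled by TMM in edgeR 3.18.1, in 2 tables. These also hold gene length and the authors' own fold changes and p-values, which were not used. Since FPKM hide the depth behind a value, whole reads were recovered from FPKM and length (100% of values, tolerance 0.001 reads). The siC values are equal in both tables (0 differ), so all 9 libraries share 1 scale.

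Conditions were compared by limma 3.58.1 (lmFit, eBayes with a mean-variance trend) in R 4.3.3 on log2(FPKM + 0.1), a scale that understates changes of low genes. Genes averaging 0.1 FPKM or more across the 6 libraries compared entered, and an adjusted p (Benjamini-Hochberg over all of them) of at most 0.01 was called. Both limma tests were tried on simulated counts, taking the library scaling as known. There, limma-trend recovered none of the changes when few genes changed, unlike limma-voom, and made more false calls than its nominal rate when many did. Ratios within a library were compared by exact permutation tests (SciPy 1.17.1). Since 1 siSRF library had 0 muscle isoform reads, 0.1 FPKM was added to both sums of the ratio.

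The isoform genes and all gene lists were chosen with earlier results of these data known. Named genes are the isoforms, the tested genes of lists of up to 8, otherwise the up to 4 called genes of at least 1 FPKM with the largest change per comparison, the 3 nearest profiles, the knockdown targets and overlapping genes. Positions and transcripts are from GENCODE release 44, a later annotation than the one counted on, matched by Ensembl identifier. Alternatives were other thresholds, pseudocounts, filters and scalings, limma-voom on the recovered reads, a robust fit, all 9 libraries in 1 fit, a replicate block, added pseudogene reads, other length choices and leaving out each library.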

Additional observations from a re-analysis of the deposited data

How the results depend on the processing

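The decrease of ACTB in siSRF kept its direction and its call under all alternatives run, and no alternative other than leaving out a replicate changed the direction of ACTB, ACTG1 or ACTA2 in any comparison. The other calls depended on the setting. ACTB in siIGF2BP1 (-0.50) was called at a threshold of 0.05, above a mean of 1 FPKM, with all 9 libraries in 1 fit and by limma-voom (-0.50). ACTG1 in siSRF (-0.62) was called at 0.05 and by limma-voom (-0.61). The direct difference of ACTG1 (0.66) was called at 0.05, above a mean of 1 FPKM, without TMM scaling (0.73) and by limma-voom (0.66). Each of these settings then called 1 isoform in siIGF2BP1, or 2 in siSRF and 2 in the direct comparison, in place of 0, 1 and 1.

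With the replicate number as a block, the direct difference of ACTB (0.93) was no longer called (adjusted p = 0.0111), which leaves 0 isoforms there. The block called 91, 501 and 2075 of all genes in siIGF2BP1, siSRF and the direct comparison, against 1588, 2665 and 4460 without it. Equal numbers did not pair the libraries (correlations of their deviations of -0.0438 to 0.0186), and 1 of the 9 same-numbered pairs correlated best with its own number. Over all genes, 3596, 5205 and 7132 were called at 0.05, 3805, 5123 and 6912 by limma-voom, and 2481 in siIGF2BP1 with all 9 libraries. The share of lower genes among those called was 50.1% in siIGF2BP1 and 34.1% with the block, and without TMM scaling it went from 43.8 to 53.3% in siSRF and from 55.9 to 47.5% in the direct comparison.

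Without 1 replicate, ACTG1 in siIGF2BP1 ranged from -0.15 (without siC replicate 3) to 0.17, with -0.12 without siIGF2BP1 replicate 1, and ACTA2 from -0.22 (without siC replicate 3) to 0.54, with -0.03 without siIGF2BP1 replicate 2, none of them called. ACTG1 in siSRF ranged from -0.81 to -0.50 and its direct difference from 0.50 to 0.79, so that 1 to 2 isoforms were called in both. Called genes ranged from 436 (without siIGF2BP1 replicate 3) to 738 in siIGF2BP1, from 946 (without siSRF replicate 2) to 1796 in siSRF and from 2885 (without siSRF replicate 2) to 3358 in the direct comparison. With 2 libraries on 1 side these fits have fewer degrees of freedom.

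Counted in reads rather than per length, with 0.1 read added, the ratio of muscle to cytoplasmic isoforms differed by -1.07 in siSRF and 1.42 in the direct comparison, and that of ACTA2 by -0.9999 and 1.62, against 0.29, 0.10, 0.30 and 0.18 per length. In reads the added amount differs too, 0.1 read in place of 0.1 FPKM, and siSRF replicate 1 holds 0 muscle isoform reads. For the muscle sum in siSRF against siC the larger SD was 3.25 in reads and 0.956 per length. The ratio of ACTG1 to ACTB, with nothing added, was 0.82 higher in siSRF than in siC in both settings. The parts of length and added amount were not tested apart. Counted in reads, ACTB took 55.4% of actin in siIGF2BP1 and 50.7% in siSRF, and with main transcript lengths 56.8% and 52.1%. Between 0 and 10 reads per library limit every statement on the muscle isoforms.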
